A study of Mus musculus with 12 samples.

Results

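The mitosis and G2/M genes followed here are 40 genes that drive entry into mitosis, the building of the spindle, the separation of chromosomes and cell division. They were chosen by name, as mitotic cyclins and kinases and genes of the checkpoint, kinetochore, spindle and cytokinesis. All 40 were found among the 32168 genes of the deposited count table, and all 40 were among the 16595 genes tested. The lowest count of any of them in any library was 183 reads (Knl1), so none depended on the filter for low counts.

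The measurements are RNA-seq counts from 12 libraries. All came from mouse embryonic fibroblasts, cells of connective tissue grown from E13.5 embryos and used at passage 4 to 10. DKO cells lack the kinases LATS1 and LATS2, and WT cells are wild type. Cells of both genotypes received 1 µM MGH-CP1 (CP1), which blocks the palmitoylation of TEAD transcription factors, or the solvent DMSO. The 8 groups are DKO CP1 at 2 days, DKO CP1 at 4 days, DKO DMSO at 2 days, DKO DMSO at 4 days and the same 4 for WT, with 2 libraries in each CP1 group and 1 in each DMSO group. The labels name neither the embryos nor the line behind each genotype, so loss of LATS1/2 and another origin of the DKO cells cannot be told apart. They also do not say that repeats came from separate cultures, and p-values then reflect only how far these samples differ among themselves, possibly for technical reasons. In bulk RNA, fewer cells in mitosis and less RNA of these genes per cell cannot be told apart.

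Most genes of mitosis are transcribed late in the cell cycle and are silent in resting cells. In quiescent cells the DREAM complex, built on the MuvB proteins, holds their promoters off at a short element called the cell cycle homology region (CHR), which usually lies close to CCAAT boxes bound by NF-Y. As cells go through S phase and G2, MuvB binds the B-MYB protein, encoded by Mybl2, and then FOXM1, and the same promoters are switched on. Without LATS1 and LATS2, YAP and TAZ stay in the nucleus with TEAD proteins and drive proliferation genes, and YAP has been tied to mitotic gene expression together with B-MYB.

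Promoters are shown for genes from both sides of the main contrast. In DMSO, Cdc20 and Plk1 were higher in DKO than in WT libraries, Cenpf and Mki67 were lower, and Mybl2 had the largest increase of the members. Each window of 300 bases spans the start annotated by RefSeq, with most of it upstream, on GRCm38.p6, read 5′ to 3′ on the gene's strand. For some genes this start differs from the gene positions of the count table, given below. The Mybl2 window ends at 163054684, before the gene start of 163054687 given there. Capitals mark matches on either strand to CCAAT, to TTTGAA or TTCGAA, which are letters of the CHR, and to GGAATG, the core letters of a TEAD site. Matches on the other strand appear as their reverse complements.
Cdc20, chr4:118437294-118437593, minus strand: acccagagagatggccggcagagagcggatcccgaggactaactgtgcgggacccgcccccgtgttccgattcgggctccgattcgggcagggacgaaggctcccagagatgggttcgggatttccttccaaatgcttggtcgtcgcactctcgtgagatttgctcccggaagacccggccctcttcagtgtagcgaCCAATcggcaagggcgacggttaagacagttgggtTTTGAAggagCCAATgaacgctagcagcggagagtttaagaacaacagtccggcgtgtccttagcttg
Plk1, chr7:122159185-122159484, plus strand: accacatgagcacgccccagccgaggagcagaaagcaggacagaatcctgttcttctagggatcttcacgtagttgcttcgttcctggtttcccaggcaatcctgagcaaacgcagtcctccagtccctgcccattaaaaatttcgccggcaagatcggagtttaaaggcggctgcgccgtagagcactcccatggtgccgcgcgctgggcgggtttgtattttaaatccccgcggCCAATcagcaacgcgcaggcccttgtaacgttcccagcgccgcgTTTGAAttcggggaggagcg
Cenpf, chr1:189688037-189688336, minus strand: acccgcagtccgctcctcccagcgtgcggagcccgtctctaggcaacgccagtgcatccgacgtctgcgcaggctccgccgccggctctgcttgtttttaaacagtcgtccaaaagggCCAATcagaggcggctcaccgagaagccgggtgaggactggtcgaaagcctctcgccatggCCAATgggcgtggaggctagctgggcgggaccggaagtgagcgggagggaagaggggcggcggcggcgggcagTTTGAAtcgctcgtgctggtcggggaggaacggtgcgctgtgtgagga
Mki67, chr7:135716330-135716629, minus strand: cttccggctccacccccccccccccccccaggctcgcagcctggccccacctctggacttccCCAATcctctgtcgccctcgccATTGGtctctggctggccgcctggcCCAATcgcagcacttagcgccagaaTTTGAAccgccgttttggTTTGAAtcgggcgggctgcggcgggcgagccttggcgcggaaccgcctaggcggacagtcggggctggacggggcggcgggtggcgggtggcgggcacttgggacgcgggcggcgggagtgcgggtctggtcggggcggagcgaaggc
Mybl2, chr2:163054385-163054684, plus strand: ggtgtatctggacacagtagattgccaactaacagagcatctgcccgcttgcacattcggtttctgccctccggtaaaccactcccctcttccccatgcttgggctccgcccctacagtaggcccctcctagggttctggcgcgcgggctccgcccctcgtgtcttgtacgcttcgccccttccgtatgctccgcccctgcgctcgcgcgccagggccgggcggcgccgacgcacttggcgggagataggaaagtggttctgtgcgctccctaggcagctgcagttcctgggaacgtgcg
Windows were found for 33 of the 40 genes. Those of Ccna2, Cdc25c, Aurkb, Incenp, Tpx2, Kif20a and Foxm1 were not used here. CCAAT stood in 24 of 33 windows (72.7%), against 37.9% of all 27025 windows of the table and 68% of 75 windows of other mitosis genes. TTTGAA or TTCGAA stood in 25 (75.8%), against 19.4% of all windows and 60% of those of other mitosis genes. The TEAD core letters stood in 3 (9.09%), against 14.6% of all windows and 13.3% of those of other mitosis genes. The 2 genes higher in DKO cells and the 2 lower genes shown above all hold CCAAT and TTTGAA, while the Mybl2 window holds none of the 4 motifs. Those of Birc5, called higher, and Nuf2, called lower, hold none of the 4 either. Motifs were not compared between higher and lower members. A match of letters is a description and not a bound site.

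Libraries held 16970834 to 25299262 counts, so a gene at 1 CPM (the count scaled to a common total, here with TMM-adjusted library sizes) rested on 17 to 25 reads. Lats1 stood at 34.2%, 31.2%, 35.6% and 34.9% of the WT DMSO mean in DKO CP1 libraries and at 14.3% and 22.1% in DKO DMSO libraries, and Lats2 at 26.3% to 31.1% in all 6, which goes with the labels. Ccn2, the gene chosen as a check of the drug, stood at 58.4% and 54.9% of that mean in WT CP1 libraries at 2 days. At 4 days it stood at 87.2% and 86.6%. In DKO CP1 libraries it was at 136% to 143%, against 272% and 309% in DKO DMSO libraries. Of 10 fibroblast markers, the summed level was 12800 to 16500 CPM in DKO CP1 and 9600 to 10100 in DKO DMSO, against 15400 to 21700 in WT CP1 and 24000 to 24400 in WT DMSO. Thy1 was at 0 in both DKO DMSO libraries and at most 1.23 CPM in DKO CP1, against 119 to 138 CPM in WT libraries, and Dcn and Lum were below 2 CPM in DKO DMSO. Vim alone of the 10 was higher there, with 4940 and 4040 CPM in DKO DMSO and 3090 and 3130 CPM in WT DMSO libraries. Pdgfrb was lower by less than these, with 234 and 183 CPM in DKO DMSO and 290 and 281 CPM in WT DMSO libraries. Markers of macrophages, endothelium, epithelium, skeletal muscle and adipocytes summed to at most 71.6 CPM each in any library, and the highest was the endothelial sum in DKO DMSO, nearly all of it Kdr, with Cdh5 and Pecam1 below 1 CPM. One library stood apart before any result: in DKO DMSO at 2 days, genes in the lowest of 5 equal bins of transcript GC had a median log2 ratio of -0.97 to the WT DMSO mean. That median was -0.36 in DKO DMSO at 4 days, -0.24 to -0.06 in DKO CP1 and -0.01 to 0.02 in WT CP1. Results that rest on this library are given also without it or after a correction for transcript GC and length. A fit without 1 DKO DMSO library leaves that group with 1 library, whose spread is then taken from the other groups, so its values are given without p and its calls are no stronger support than those of the full fit.

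All 40 genes were detected in all 12 libraries. Median TPM over the 12 libraries, a level per transcript length, ran from 20.9 for Cdc25c to 248 for Cdc20 and for Ccnb2. In the DKO DMSO library of 2 days, Cenpf was at 2.12, Knl1 at 3.56, Cenpe at 5.19 and Mki67 at 9.46 TPM, the lowest there. Summed over the 40 genes, the level was 5639, 5190, 6019 and 5975 CPM in DKO CP1 libraries and 4904 and 5787 CPM in DKO DMSO libraries. It was 5256, 5177, 5877 and 5920 CPM in WT CP1 libraries and 4565 and 4551 CPM in WT DMSO libraries. Here and below, CP1 values list both repeats of day 2 and then both of day 4, and DMSO values list day 2 and then day 4. The WT DMSO sums lay below those of all the other libraries, and the DKO DMSO sum at 2 days was the lowest of the rest.

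**Figure D1:**
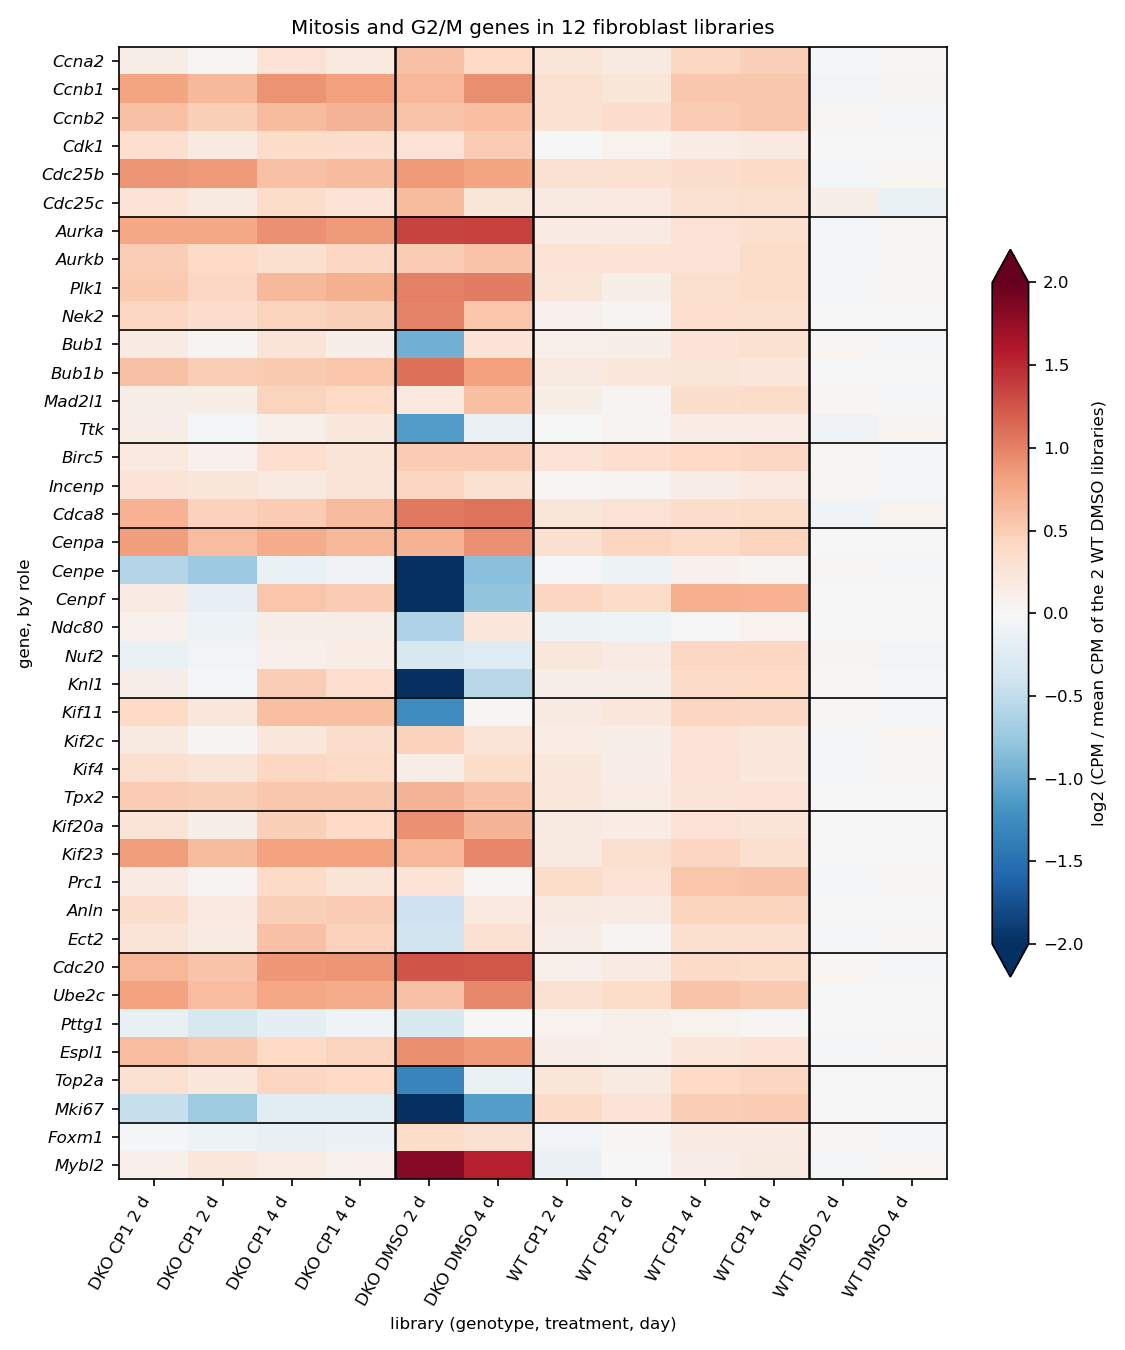
Level of the 40 genes (rows, by role) in each of the 12 libraries (columns, by genotype, treatment and day), as the log2 ratio of CPM to the mean of the 2 WT DMSO libraries; colours saturate at -2 and 2. The DKO DMSO libraries differ most, with Mybl2, Aurka and Cdc20 high in both and Mki67, Cenpf, Cenpe and Knl1 low, most of all at 2 days.

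Without drug, most of the mitosis genes differed between the genotypes and were higher in DKO cells. Of the 40, 26 were called higher and 8 lower at an adjusted p under 0.05 (quasi-likelihood test of edgeR, Benjamini-Hochberg adjusted over all 16595 genes, as for every adjusted p here). Among all genes tested 32.7% were called higher and 34.8% lower. Both DKO libraries lay above both WT libraries for 27 members and below them for 7, against 39.2% and 41.8% of all genes. The median log2 fold change was 0.42 for the 40 genes and -0.06 for all genes. All 6 cyclin, Cdk1 and Cdc25 genes, all 4 mitotic kinases, all 3 chromosomal passenger subunits and both transcription factors were higher, while 4 of 6 kinetochore genes and both Top2a and Mki67 were lower. The calls kept under every one of 7 other settings and without any single library numbered 15 of the 26 higher and 3 of the 8 lower. On the TPM scale the median of all genes moved to -0.23, and relative to it the members stood at 0.40, against 0.48 on the TMM scale.

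Among the transcription factors, Mybl2 (ENSMUSG00000017861.11, mm10 chromosome 2, 163054687 to 163084688, plus strand), which encodes B-MYB, stood out. It had 155 and 129 CPM in DKO DMSO libraries, against 42.95 and 45.3 CPM in WT DMSO libraries. The DKO values were several times higher on both days. This is a log2 fold change of 1.68 (SE 0.09; adjusted p = 4.33e-09), and without the DKO DMSO library of 2 days it was 1.57. Foxm1 (ENSMUSG00000001517.14, mm10 chromosome 6, 128362967 to 128376146, plus strand), the forkhead factor of G2 genes, had 188.5 and 182 CPM in DKO DMSO and 150 and 143 CPM in WT DMSO libraries. The groups did not overlap, but the difference was small, with a log2 fold change of 0.34 (SE 0.08; adjusted p = 0.00256). That call was lost on the TPM scale, with and without ribosomal and small RNA genes, and without the WT DMSO library of 4 days.

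Among the mitotic kinases, Aurka (ENSMUSG00000027496.15, mm10 chromosome 2, 172356190 to 172370535, minus strand), the centrosomal Aurora A kinase, had 138 and 141 CPM in DKO DMSO libraries and 53.1 and 55.4 CPM in WT DMSO libraries. Its values were nearly the same on both days within each genotype. The log2 fold change was 1.36 (SE 0.07; adjusted p = 4.72e-09). Plk1 (ENSMUSG00000030867.7, mm10 chromosome 7, 122159439 to 122169873, plus strand), the Polo kinase of mitotic entry and exit, had 147 and 149 CPM in DKO DMSO and 71.1 and 75.05 CPM in WT DMSO libraries, a log2 fold change of 1.02 (SE 0.09; adjusted p = 2.74e-07). Nek2, a kinase that separates centrosomes, was higher by 0.78 (adjusted p = 7.41e-05). Aurkb (ENSMUSG00000020897.12, mm10 chromosome 11, 69045647 to 69051664, plus strand), the kinase of the passenger complex, had 100.2 and 104 CPM in DKO DMSO and 68.9 and 71.4 CPM in WT DMSO libraries, a smaller log2 fold change of 0.54 (SE 0.08; adjusted p = 5.16e-05). Its 3 partners were higher too: Cdca8 (borealin) by 1.07, Birc5 (survivin) by 0.51 and the scaffold gene Incenp by 0.37. Aurkb, Birc5 and Incenp were no longer called on the TPM scale. Birc5 (ENSMUSG00000017716.15, mm10 chromosome 11, 117849251 to 117855743, plus strand) had 99.3 and 98.9 CPM in DKO DMSO and 71.3 and 67.7 CPM in WT DMSO libraries, without overlap.

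The cyclin genes had smaller log2 fold changes than Mybl2 and Aurka. Ccnb1 (ENSMUSG00000041431.16, mm10 chromosome 13, 100778650 to 100786570, minus strand), the cyclin partner of Cdk1 at mitotic entry, had 198 and 239 CPM in DKO DMSO libraries and 119.9 and 130.2 CPM in WT DMSO libraries, a log2 fold change of 0.80 (SE 0.08; adjusted p = 1.91e-06). Cdk1 itself (ENSMUSG00000019942.13, mm10 chromosome 10, 69335146 to 69352938, minus strand) had 188 and 218 CPM in DKO DMSO and 152 and 155 CPM in WT DMSO libraries, a log2 fold change of 0.40 (SE 0.08; adjusted p = 0.000614). Both sets of values were separate between genotypes. The phosphatase gene Cdc25b, which activates Cdk1, was higher by 0.83, Ccnb2 by 0.59, Ccna2 by 0.49 and Cdc25c by 0.45. The calls of Ccna2, Ccnb2 and Cdk1 were lost on the TPM scale, and that of Cdc25c also without DKO DMSO at 2 days or WT DMSO at 4 days.

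Of the genes of the anaphase-promoting complex and sister separation, 3 of 4 were higher. Cdc20 (ENSMUSG00000006398.15, mm10 chromosome 4, 118432901 to 118437352, minus strand), which activates the complex at anaphase, had 234 and 231 CPM in DKO DMSO libraries and 101 and 95.5 CPM in WT DMSO libraries. The DKO level was more than double that of WT cells on each day, with a log2 fold change of 1.25 (SE 0.10; adjusted p = 1.72e-07). Espl1, the separase that cuts cohesin, was higher by 0.89, and Ube2c, the E2 enzyme of the complex, by 0.78. Pttg1, which encodes securin, the inhibitor of separase, did not pass the test (-0.15; adjusted p = 0.185). Among spindle genes Tpx2, an activator of Aurora A, was higher by 0.63, the depolymerase gene Kif2c by 0.37 and the chromokinesin gene Kif4 by 0.24. Of 5 cytokinesis genes the kinesins Kif23 (0.82) and Kif20a (0.80) were higher, and Prc1, Anln and Ect2 did not pass. Among checkpoint genes Bub1b, which encodes BubR1, was higher by 0.97 and Mad2l1 by 0.39, Ttk was lower (-0.58), and Bub1 did not pass (-0.28; adjusted p = 0.326). Corrected for GC and length, Mad2l1 stood at 1.43. The calls of Mad2l1, Kif2c and Kif4 ended on the TPM scale, with and without ribosomal and small RNA genes, and without WT DMSO at 4 days. That of Kif2c ended also without DKO DMSO at 2 days, and that of Kif4 without DKO DMSO at 4 days or WT DMSO at 2 days.

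**Figure D2:**
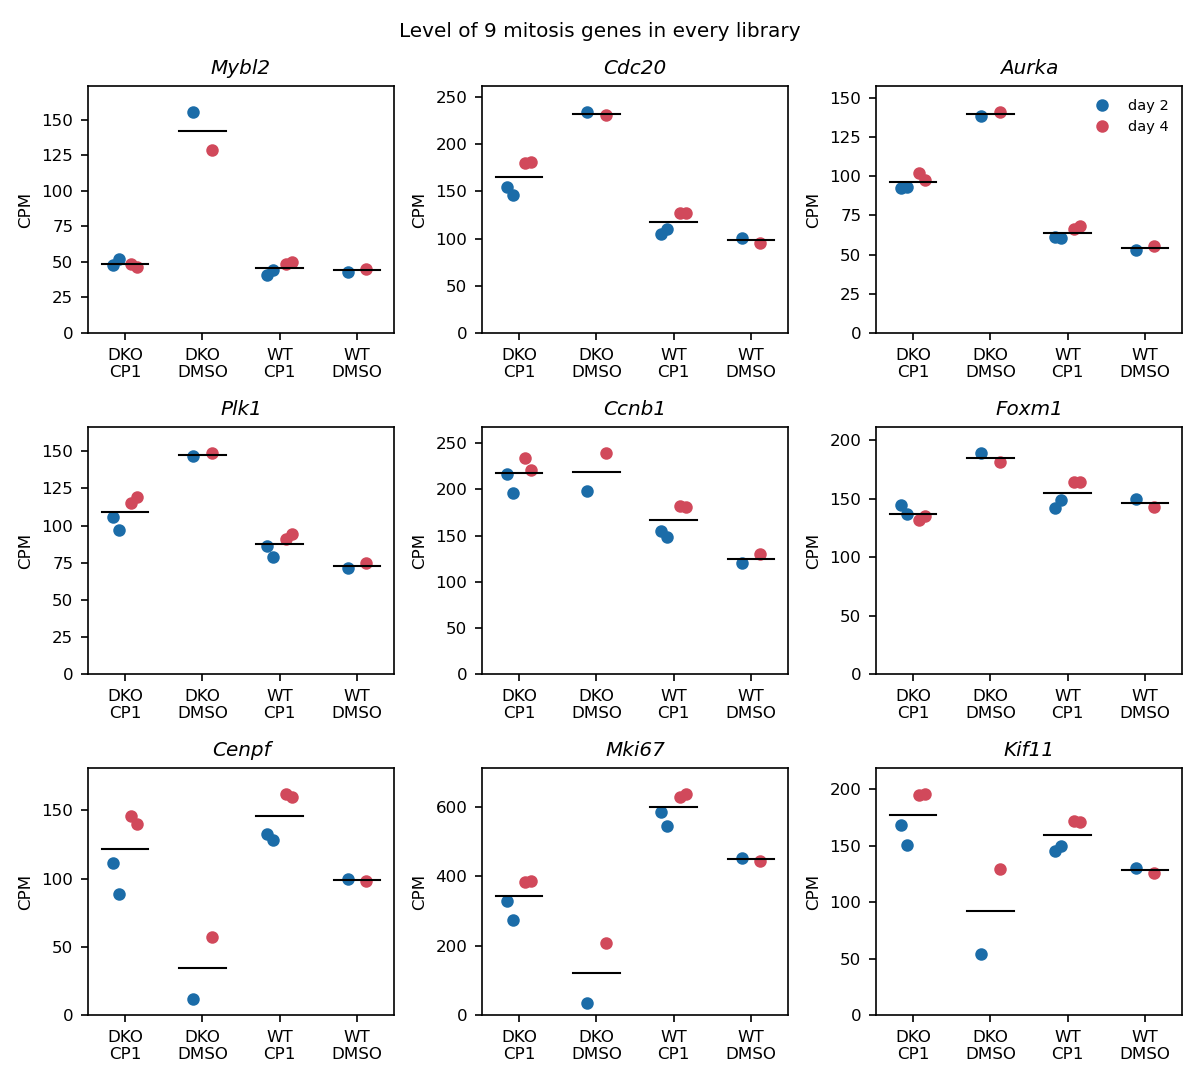
CPM of 9 genes in every library, with DKO CP1, DKO DMSO, WT CP1 and WT DMSO from left to right; blue points are day 2, red points are day 4 and lines are means over both days. Mybl2 is high in DKO DMSO alone, Cdc20, Aurka and Plk1 are highest there, and Cenpf, Mki67 and Kif11 are lowest in DKO DMSO at day 2.

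The 8 lower genes were Mki67, Cenpf, Cenpe, Knl1, Top2a, Ttk, Kif11 and Nuf2. Mki67 (ENSMUSG00000031004.8, mm10 chromosome 7, 135689784 to 135716361, minus strand), the coat protein of mitotic chromosomes used as a proliferation marker, had 33.35 and 209 CPM in DKO DMSO libraries, against 454 and 445 CPM in WT DMSO libraries. The 2 DKO libraries differed widely from each other, and both lay below the WT values. The log2 fold change was -2.21 (SE 0.53; adjusted p = 0.00823). Cenpf (ENSMUSG00000026605.14, mm10 chromosome 1, 189640606 to 189688086, minus strand), a large kinetochore protein of G2, had 11.5 and 57.1 CPM in DKO DMSO and 100 and 98.2 CPM in WT DMSO libraries, a log2 fold change of -1.78 (SE 0.41; adjusted p = 0.00655). The kinetochore motor gene Cenpe fell by 1.73 on the log2 scale (adjusted p = 0.00167) and the kinetochore scaffold gene Knl1 by 1.53 (adjusted p = 0.019). Top2a (ENSMUSG00000020914.17, mm10 chromosome 11, 98992943 to 99024189, minus strand), the topoisomerase that untangles sister chromatids, had 205 and 465 CPM in DKO DMSO and 507 and 509 CPM in WT DMSO libraries, a log2 fold change of -0.68 (SE 0.21; adjusted p = 0.0153). Kif11, the motor that keeps the spindle bipolar, fell by 0.57, and Nuf2, a subunit of the Ndc80 complex, by 0.29. The count of lower members was 3 without WT DMSO at 2 days and 5 without WT DMSO at 4 days.

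Each of these lower genes lay in the lowest bin of transcript GC or in the longest bin of transcript length. Medians of all genes in those bins were below the WT DMSO mean in both DKO DMSO libraries. Of the 12 members in the lowest bin of transcript GC, 7 were called lower and 1 higher, and of the 28 above it, 25 were called higher and 1 lower, Mki67. The share of all genes called was not counted by bin, here or below, so member counts by bin have only medians beside them. Over all genes of that lowest bin the median log2 fold change was -0.69, and in the highest bin it was 0.28. The longest of 5 bins of transcript length had a median of -0.37, and Cenpf, Mki67, Cenpe and Knl1, with 7800 to 11130 bases, lie in it. Top2a lies in it too, as do Mad2l1, Espl1 and Kif4, which were called higher. At 2 days, with 1 library a side, the log2 ratio of DKO to WT in DMSO was -3.77 for Mki67, -3.13 for Cenpf, -2.98 for Knl1, -2.88 for Cenpe, -1.31 for Top2a and -1.27 for Kif11. At 4 days it was -1.09 for Mki67, -0.78 for Cenpf, -0.51 for Knl1, -0.82 for Cenpe, -0.13 for Top2a and 0.05 for Kif11. The 2-day ratios were the more negative for each of these 6 genes.

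With GC and length corrected, 30 members were called higher and 3 lower, against 37.4% and 29.7% of all genes, and the median over the members was 0.59, against 0.08 over all genes. The 3 genes that remained lower were Mki67 (-1.71; adjusted p = 0.0163), Cenpe (-0.99; adjusted p = 0.00143) and Cenpf (-0.98; adjusted p = 0.0121). Knl1, Top2a, Ttk and Kif11 were no longer called, and Nuf2 was called higher (0.32; adjusted p = 0.035). Without DKO DMSO at 2 days, 25 members were called higher and 6 lower. Mki67 then stood at -1.29, Cenpe at -1.12, Cenpf at -1.06 and Knl1 at -0.74, Kif11 and Ttk were no longer called, and Bub1 was called higher at 0.23. Without DKO DMSO at 4 days, 26 were called higher and 11 lower, and Mki67 stood at -3.57, Cenpf at -2.85, Knl1 at -2.75 and Cenpe at -2.58. The part of transcript GC and length in the lower values was not tested beyond this.

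**Figure D3:**
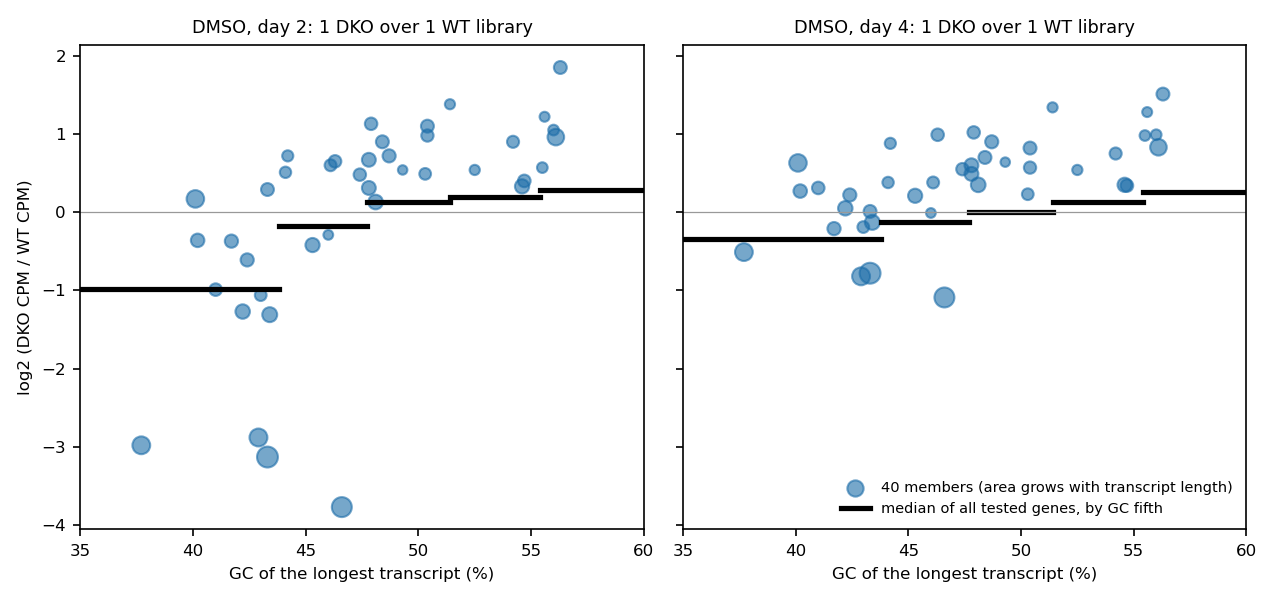
Log2 ratio of CPM in 1 DKO DMSO to 1 WT DMSO library (vertical) against the GC of each gene's longest transcript (horizontal, in %), at day 2 (left) and day 4 (right). Circles are the 40 members, with area growing with transcript length, and bars are medians of all tested genes by GC bin, the outer bins drawn to the axis edge; the median of the lowest bin is -0.98 at day 2 and -0.34 at day 4.

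In DKO cells the genes split between higher and lower values with CP1: 10 members were called higher and 12 lower, against 24.2% and 27.6% of all genes, so the counts stand near the background in both directions. The median was -0.09 for the members and 0.02 for all genes. Mybl2, the kinases Aurka, Plk1 and Nek2, Cdc20, Espl1, Cdca8, Birc5, Bub1b, Kif20a, Ccna2 and Foxm1 were lower. Cenpf, Mki67, Knl1, Cenpe, Kif11, Top2a, Ttk, Anln, Ect2 and Nuf2 were higher. The DKO DMSO libraries enter both this comparison and the one between genotypes, so the direction of a gene in one is not independent of the other.

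Mybl2 had 47.55, 51.8, 48.7 and 46.6 CPM in DKO CP1 libraries, against 155 and 129 CPM in DKO DMSO libraries. All 4 CP1 libraries lay near the WT libraries and far below both DKO DMSO libraries. The log2 fold change was -1.54 (SE 0.07; adjusted p = 8.21e-09), and Mybl2 was the member whose lower call held in every setting tried and without any 1 library. At 2 days it was -1.64 and at 4 days -1.44. Foxm1 had 144, 137, 132 and 135 CPM in DKO CP1 and 188.5 and 182 CPM in DKO DMSO libraries, a log2 fold change of -0.43 (SE 0.07; adjusted p = 0.000192).

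Aurka had 92.5, 93.2, 102 and 97.65 CPM in DKO CP1 libraries and 138 and 141 CPM in DKO DMSO libraries, a log2 fold change of -0.53 (SE 0.06; adjusted p = 1.25e-05). Cdc20 had 155, 146, 179.7 and 181 CPM in DKO CP1 and 234 and 231 CPM in DKO DMSO libraries, a log2 fold change of -0.50 (SE 0.08; adjusted p = 0.000273). Plk1 had 105.5, 96.9, 115 and 119 CPM in DKO CP1 and 147 and 149 CPM in DKO DMSO libraries, a log2 fold change of -0.44 (SE 0.07; adjusted p = 0.000229). In each of these 3 genes all CP1 libraries lay below both DMSO libraries. Log2 fold changes of the other lower genes were -0.49 for Cdca8, -0.48 for Kif20a, -0.43 for Bub1b, -0.39 for Espl1, -0.36 for Nek2, -0.33 for Ccna2 and -0.29 for Birc5. Nek2 and Ccna2 lost the call without DKO DMSO at 2 days. On the TPM scale the median of all genes moved to 0.23, Mybl2 was the only one of the 12 still called lower and Birc5 turned to 0.02. Without ribosomal and small RNA genes, with a median of 0.22, Mybl2 and Aurka were called lower. Relative to the median of all genes, the members stood at -0.10 on the TMM scale and at 0.00 on both TPM scales.

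Several core genes of mitotic entry did not pass. Ccnb1 had 217, 196.5, 234 and 222 CPM in DKO CP1 and 198 and 239 CPM in DKO DMSO libraries, with overlap and a log2 fold change of 0.00 (SE 0.07; adjusted p = 0.981). Cdk1 had 194, 174, 199 and 197 CPM in DKO CP1 and 188 and 218 CPM in DKO DMSO libraries, with overlap and a log2 fold change of -0.09 (SE 0.07; adjusted p = 0.312). Aurkb had 99.2, 92.3, 87.5 and 93.4 CPM in DKO CP1 and 100.2 and 104 CPM in DKO DMSO libraries, a log2 fold change of -0.13 (SE 0.07; adjusted p = 0.125). Ccnb2, Cdc25b, Ube2c, Cenpa, Kif23 and Pttg1 had log2 fold changes between -0.09 and 0.00 and did not pass. Corrected for GC and length, Ccnb1 (-0.20; adjusted p = 0.0179), Cdc25c (-0.37; adjusted p = 0.0237) and the checkpoint gene Mad2l1 (-0.89; adjusted p = 8.46e-06) were called lower.

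The higher genes were led by large kinetochore genes and Mki67. Mki67 had 328, 274, 383 and 388 CPM in DKO CP1 libraries and 33.35 and 209 CPM in DKO DMSO libraries, a log2 fold change of 1.84 (SE 0.49; adjusted p = 0.0178). Cenpf had 112, 88.8, 146 and 140.2 CPM in DKO CP1 and 11.5 and 57.1 CPM in DKO DMSO libraries, a log2 fold change of 2.06 (SE 0.38; adjusted p = 0.00341). Top2a had 631, 587, 685 and 673 CPM in DKO CP1 and 205 and 465 CPM in DKO DMSO libraries, a log2 fold change of 1.03 (SE 0.19; adjusted p = 0.00135). For these 3 genes all CP1 libraries lay above both DMSO libraries, of which the 2-day one was the lower. The spindle motor gene Kif11 was higher by 1.04, Knl1 by 1.77, Cenpe by 1.36, the anillin gene Anln by 0.49 and Ect2 by 0.41. In the lowest GC bin the median over all genes was 0.46, and 8 of its 12 members were called higher. With GC and length corrected, 8 members were called higher and 15 lower (19.6% and 31.6% of all genes), Nuf2 and Ect2 lost the call, and Ect2 turned to -0.09. Without DKO DMSO at 2 days the values were smaller for all but Nuf2: Mki67 stood at 0.88, Cenpf at 1.33, Knl1 at 0.96, Cenpe at 0.74, Top2a at 0.55, Kif11 at 0.59, Ttk and Anln at 0.29, Ect2 at 0.22 and Nuf2 at 0.39. Without DKO DMSO at 4 days they were larger for all but Nuf2, with Mki67 at 3.17, Cenpf at 3.12, Knl1 at 2.97, Cenpe at 2.19, Top2a at 1.57, Kif11 at 1.55, Ttk at 1.18, Anln at 0.69 and Ect2 at 0.60, and Nuf2 lost the call.

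Each day taken alone also gave both directions; the spread of its single DMSO library was taken from the CP1 groups. At 2 days 13 members were called higher and 17 lower (27.1% and 29.1% of all genes). That comparison rests on the DKO DMSO library of 2 days alone, and with GC and length corrected 13 were called higher and 20 lower (21.7% and 33.7% of all genes). Incenp and Ndc80 then lost the call, and Nuf2 and Ect2 turned to -0.34 and -0.14. At 4 days 11 were called higher and 18 lower (21.8% and 26.8%). Aurka stood at -0.57 and -0.49 at 2 and 4 days, Cdc20 at -0.64 and -0.36, and Foxm1 at -0.42 and -0.45. Bub1 was called higher at 2 days (1.06) and did not pass at 4 days (-0.08; adjusted p = 0.349), and Prc1, a bundler of the central spindle, was called lower at 2 days (-0.16) and higher at 4 days (0.29). The difference between days was not tested.

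**Figure D4:**
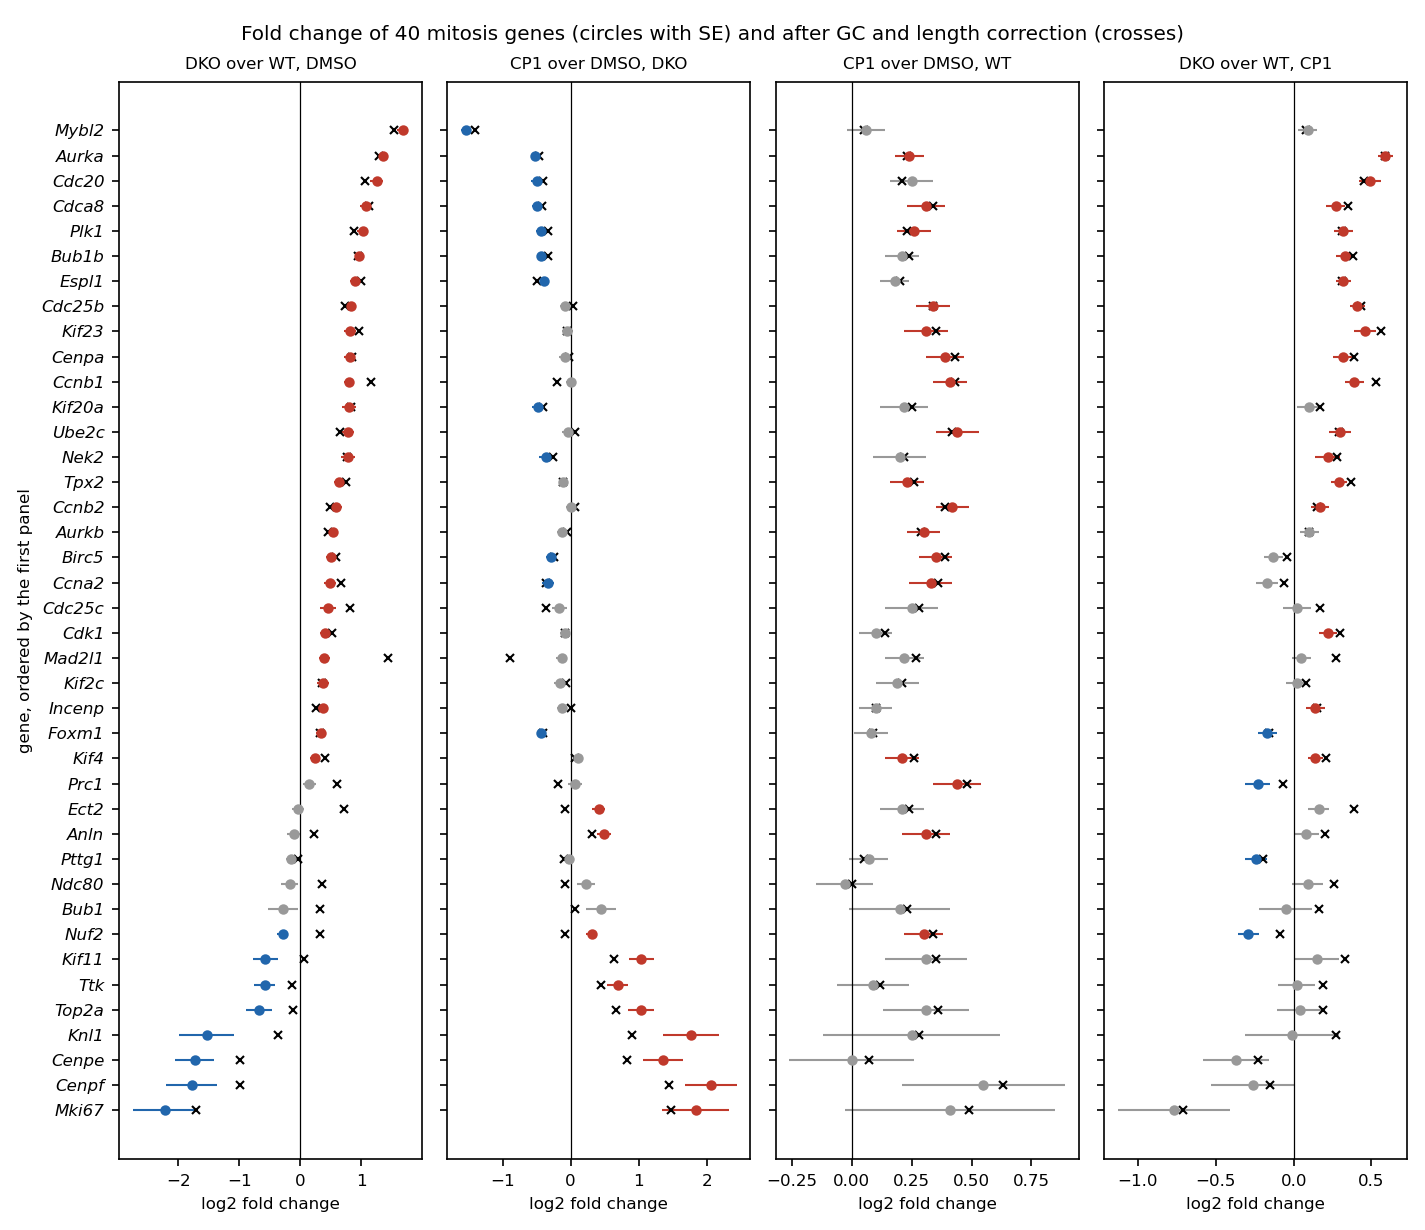
Log2 fold change (circles, with SE as bars) of the 40 genes in 4 comparisons from left to right: DKO over WT in DMSO, CP1 over DMSO in DKO cells, CP1 over DMSO in WT cells, and DKO over WT in CP1, each with its own scale; red is called higher, blue called lower, grey not called, and crosses are values after the GC and length correction. Mybl2 is at 1.68 in the first panel and at -1.54 in the second; on the TPM scale Birc5 in the second panel and Prc1, Pttg1 and Foxm1 in the fourth turn to values between 0.00 and 0.07.

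In WT cells CP1 went with small increases. With CP1, 17 members were called higher and 0 lower, against 7.5% and 10.3% of all genes. By edgeR 0 were lower also at an unadjusted p under 0.05, and DESeq2 called 15 higher and 0 lower. The median was 0.25 for the members and 0.01 for all genes, and 39 of the 40 log2 fold changes were above 0, the exception being Ndc80 at -0.03. All CP1 libraries lay above both DMSO libraries for 33 members, against 22.9% of all genes. The calls included 4 of 6 cyclin, Cdk1 and Cdc25 genes and 3 of 4 mitotic kinases. With GC and length corrected, 21 were called higher and 0 lower, against 8.25% and 10.6% of all genes.

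Ccnb1 had 154.5, 148, 182 and 181 CPM in WT CP1 libraries and 119.9 and 130.2 CPM in WT DMSO libraries, a log2 fold change of 0.41 (SE 0.07; adjusted p = 0.00176). Birc5 had 84.3, 87.4, 91.2 and 92.8 CPM in WT CP1 and 71.3 and 67.7 CPM in WT DMSO libraries, a log2 fold change of 0.35 (SE 0.07; adjusted p = 0.00475). Aurkb had 86.1, 85.0, 84.7 and 90.4 CPM in WT CP1 and 68.9 and 71.4 CPM in WT DMSO libraries, a log2 fold change of 0.30 (SE 0.07; adjusted p = 0.00902). The groups were separate in all 3. Plk1 had 86.1, 79.1, 91.0 and 94.2 CPM in WT CP1 and 71.1 and 75.05 CPM in WT DMSO libraries, a log2 fold change of 0.26 (SE 0.07; adjusted p = 0.0294). Ccnb2 was higher by 0.42, Ube2c and Prc1 by 0.44 each, Cenpa, the histone variant of centromeres, by 0.39 and Cdc25b by 0.34. Mybl2 had 40.9, 44.6, 48.5 and 49.8 CPM in WT CP1 and 42.95 and 45.3 CPM in WT DMSO libraries, and Foxm1 had 142, 149, 164 and 164 CPM in WT CP1 and 150 and 143 CPM in WT DMSO libraries. Both genes overlapped between treatments and did not pass (log2 fold changes of 0.06 and 0.08).

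Mki67 had 586, 545, 630.4 and 636 CPM in WT CP1 and 454 and 445 CPM in WT DMSO libraries, and Top2a had 600.1, 574, 673 and 683 CPM in WT CP1 and 507 and 509 CPM in WT DMSO libraries. All CP1 values were higher, yet neither passed, with log2 fold changes of 0.41 (SE 0.44; adjusted p = 0.606) and 0.31 (SE 0.18; adjusted p = 0.3). Their error in this fit is shared with DKO cells, where the day 2 and day 4 DMSO libraries differ. With 8 separate group means, 32 members were called higher in WT cells. The count also depended on single libraries: it was 0 without WT DMSO at 4 days (9 at an unadjusted p under 0.05), 8 without WT DMSO at 2 days, 10 without repeat 1 of WT CP1 at 2 days, 9 without either repeat of WT CP1 at 4 days and 32 without either DKO DMSO library. On the TPM scale limma called 0 higher, 0 also at an unadjusted p under 0.05. There a single gene, Gm23935, annotated as a miRNA, held 20.4% to 21.9% of TPM in 3 of the 4 WT CP1 libraries, against 0.108% and 0.118% in WT DMSO, and the median of all genes moved to -0.14. Without ribosomal and small RNA genes 25 members were called higher. Of all genes 3870 were then called, 2668 of them higher. Relative to the median of all genes, the members stood at 0.24 on the TMM scale, 0.21 on the TPM scale and 0.25 without ribosomal and small RNA genes.

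By day, 21 members were called higher and 0 lower at 2 days (11.3% and 14.2% of all genes), and 34 higher and 0 lower at 4 days (11.5% and 13.8%). DESeq2 called 10 and 27 higher and 0 lower, and 0 members were lower at an unadjusted p under 0.05 by either tool on either day. Without 1 repeat of CP1 at 2 days, the 2-day count was 10 for the first repeat and 15 for the second. Cenpf was higher by 0.38 at 2 days and 0.71 at 4 days, Ube2c by 0.32 and 0.56, and Mki67 by 0.32 and 0.51. Ccn2, the check of the drug, stood at -0.84 at 2 days and at -0.18 at 4 days. Cdc20 did not pass at 2 days (0.10; adjusted p = 0.244) and was higher at 4 days (0.41; adjusted p = 3.24e-06).

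**Figure D5:**
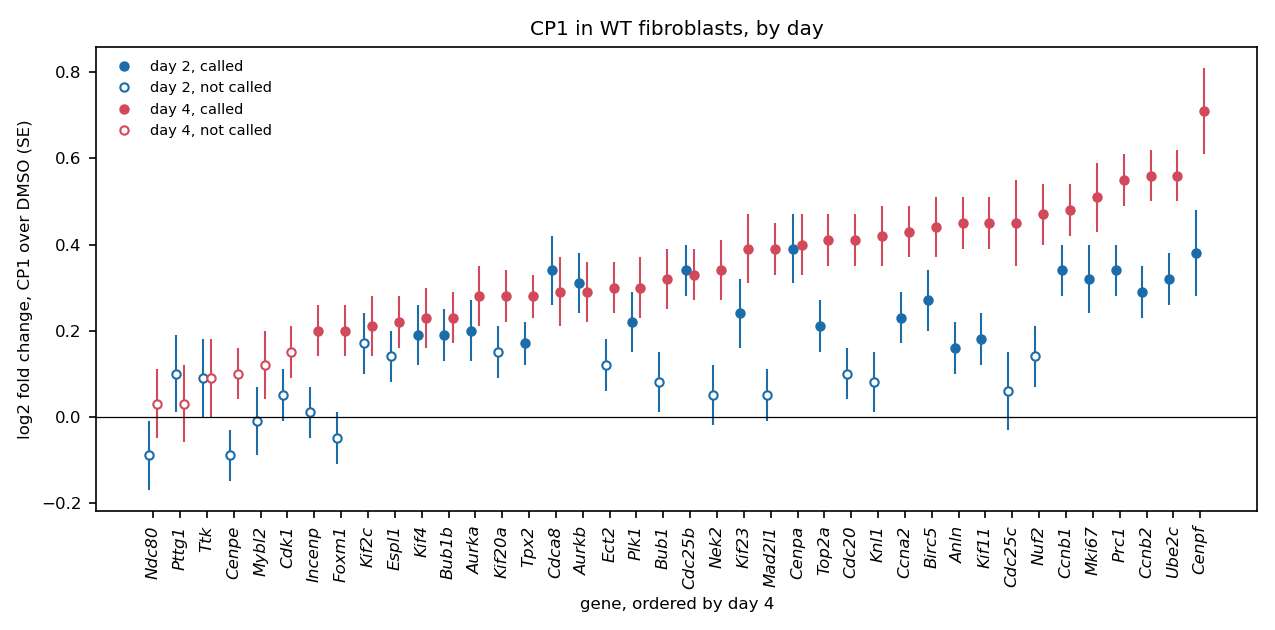
Log2 fold change of CP1 over DMSO in WT cells for the 40 genes, ordered by their day 4 value, at day 2 (blue) and day 4 (red), with SE as bars; filled circles were called and open circles were not. At day 2, 21 genes are filled and at day 4, 34, and none lies below 0 at day 4.

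Whether CP1 acted differently in the 2 genotypes was tested as the difference of its effects, DKO minus WT. The effect was lower in DKO cells for 24 members and higher for 5, against 22.3% and 20.1% of all genes. The median difference was -0.37 for the members and 0.01 for all genes. Mybl2 had the largest of the lower differences, -1.60 (SE 0.11; adjusted p = 3.33e-07). It was followed by Cdca8 with -0.80, Aurka with -0.77, Cdc20 with -0.75, Plk1 and Kif20a with -0.70 each, Ccna2 with -0.66, Birc5 and Bub1b with -0.64 each, Espl1 with -0.58, Nek2 with -0.56 and Foxm1 with -0.51. Ccnb1 (-0.41) and Aurkb (-0.43) were among the lower too; with CP1 both were called higher in WT cells and not called in DKO cells. Cdk1 did not pass (-0.18; adjusted p = 0.15).

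The 5 genes with a higher effect in DKO cells were Cenpf (1.52), Cenpe (1.36), Kif11 and Top2a (0.72 each) and Ttk (0.61), all in the lowest GC bin. With GC and length corrected, 1 member was higher, Cenpe, and 26 were lower, against 16.1% and 25.9% of all genes. By edgeR the count of higher members was 0 without WT DMSO at 2 days or at 4 days (2 and 6 at an unadjusted p under 0.05) and 6 with all libraries by DESeq2. It was 1 without DKO CP1 repeat 2 at 2 days or any 1 WT CP1 library, 3 without DKO CP1 repeat 1 at 2 days and 11 without DKO DMSO at 4 days. Without DKO DMSO at 2 days 6 were called higher and 23 lower, and the differences were 0.78 for Cenpf, 0.74 for Cenpe, 0.28 for Kif11, 0.24 for Top2a and 0.20 for Ttk, which lost the call, and -0.29 for Nek2 and -1.49 for Mybl2. Without DKO DMSO at 4 days they were 2.58 for Cenpf, 2.19 for Cenpe, 1.23 for Kif11, 1.26 for Top2a and 1.09 for Ttk. The count of lower members was 14 without WT DMSO at 4 days. The median of all genes moved to 0.38 on the TPM scale, and there 11 members were called higher and 1 lower, Mybl2. Of all genes 6078 were called there, 5549 of them higher. Without ribosomal and small RNA genes, 8 members were higher and 12 lower. Of all genes 6980 were then called, 4460 of them higher. Relative to the median of all genes, the members stood at -0.38 on the TMM scale, -0.25 on the TPM scale and -0.31 without ribosomal and small RNA genes.

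Under CP1 the members called between genotypes were mostly higher in DKO cells. In DKO CP1 against WT CP1 cells 17 members were called higher and 4 lower, against 28.9% and 30.6% of all genes, and the median was 0.10 for the members and -0.01 for all genes. On the TPM scale the median of all genes moved to 0.19, and the members stood at 0.15 relative to it, against 0.11 on the TMM scale. Aurka had 92.5, 93.2, 102 and 97.65 CPM in DKO CP1 and 60.9, 60.9, 66.4 and 68.0 CPM in WT CP1 libraries, a log2 fold change of 0.59 (SE 0.05; adjusted p = 4.88e-07). Cdc20 had 155, 146, 179.7 and 181 CPM in DKO CP1 and 105, 110.3, 127 and 127 CPM in WT CP1 libraries, a log2 fold change of 0.49 (SE 0.07; adjusted p = 4.37e-05). Both genes were separate between genotypes. Kif23, a subunit of centralspindlin, was higher by 0.46, Cdc25b by 0.41, Ccnb1 by 0.39, Plk1 by 0.32 and Cdk1 by 0.22. These 7 calls held in all 7 settings and without any 1 library.

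Mybl2 did not pass under CP1, with a log2 fold change of 0.09 (SE 0.06; adjusted p = 0.258) and overlapping values. Mki67 had 328, 274, 383 and 388 CPM in DKO CP1 and 586, 545, 630.4 and 636 CPM in WT CP1 libraries. All DKO values were lower, but the log2 fold change of -0.77 (SE 0.36; adjusted p = 0.102) did not pass. It was -0.82 and called lower in fits without either of the DKO DMSO libraries, which are not part of this contrast but enter its error. The 4 lower calls were Nuf2 (-0.29), Pttg1 (-0.24), Prc1 (-0.23) and Foxm1 (-0.17). None of them was called on the TPM scale, where Prc1 stood at 0.02, Pttg1 at 0.00 and Foxm1 at 0.07, and Nuf2 and Prc1 were not called with GC and length corrected. Prc1 and Foxm1 kept the call in 6 and 8 of the 12 fits that left out 1 library. After the correction 23 members were higher and 2 lower, against 32.5% and 28% of all genes. The count of lower members was 9 without either DKO DMSO library, and 2 without DKO CP1 repeat 2 at 2 days or without either repeat of WT CP1 at 4 days.

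Under CP1 a part of the members was higher at 4 days than at 2 days in both genotypes, by little. In DKO CP1 cells 18 members were called higher and 2 lower at 4 days than at 2 days, against 12.1% and 12% of all genes. In WT CP1 cells 19 were called higher and 0 lower, against 7% and 8.26%; 0 were lower also at an unadjusted p under 0.05, and DESeq2 called 14 higher and 0 lower. The medians were 0.12 and 0.15, against 0.00 over all genes. In DKO cells the largest differences were those of Cenpe (0.56), Cenpf (0.52), Knl1 (0.38) and Mki67 (0.36), and the 2 lower genes were Cdc25b (-0.26) and Espl1 (-0.16). In WT cells they were Cenpf (0.30), Anln (0.28), Mad2l1 (0.27) and Ccnb1, Nek2 and Knl1 (0.26 each). Cdc20 rose by 0.26 in DKO CP1 and 0.24 in WT CP1 cells. Cenpe, Cenpf and Knl1 lie in the lowest bin of transcript GC. Between the DKO CP1 days the median over all genes was 0.11 in that bin and -0.10 in the highest. Of the 12 members in the lowest bin, 9 were called higher in DKO CP1 cells. With GC and length corrected, 16 members were called higher and 1 lower in DKO CP1 cells. Of the 16595 genes tested, 3973 were then called, 2284 of them higher. In WT CP1 cells 26 members were called higher and 0 lower with this correction. Of the 16595 genes, 2965 were called there, 1637 of them higher. The 19 higher in WT CP1 cells given above and the counts that follow are without the correction. The WT count was 11 or 12 without any 1 WT CP1 library and 28 without either DKO CP1 library of 2 days. In DKO cells the lower count was 1 without DKO CP1 repeat 1 at 2 days or either repeat at 4 days and 3 without repeat 2 at 2 days.

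Other genes of the pathway were counted from lists. Of 91 other mitosis genes, in DMSO 36 were higher and 24 lower in the DKO libraries, against 32.7% and 34.8% of all genes, with a median of -0.02, against -0.06 over all genes. After GC and length correction, 56 were higher and 13 lower, against 37.4% and 29.7% of all genes, with a median of 0.38, against 0.08. Ncaph2, a condensin subunit, was higher by 1.16 (SE 0.08; adjusted p = 5.48e-08), and Tacc3, a spindle protein, by 1.07 (SE 0.08; adjusted p = 6.53e-08). With CP1, 29 of the 91 were higher and 26 lower in DKO cells, against 24.2% and 27.6% of all genes, and 28 higher and 2 lower in WT cells, against 7.5% and 10.3%. With GC and length corrected, 15 were higher and 38 lower in DKO cells, against 19.6% and 31.6% of all genes. The median was then -0.13 for the list and -0.05 for all genes. In WT cells 32 were then higher and 1 lower, against 8.25% and 10.6%. Lmnb1, which encodes lamin B1, was lower in DKO cells, at -0.77 (SE 0.08; adjusted p = 7.46e-06), and Kif20b, a kinesin of cytokinesis, was higher by 1.29 (SE 0.12; adjusted p = 1.82e-06), and by 0.61 with GC and length corrected.

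Of 16 subunits and partners of the anaphase-promoting complex, in DMSO 13 were higher and 1 lower in the DKO libraries (median 0.43), against the 32.7% and 34.8% of all genes given above. With GC and length corrected, 15 were higher and 1 lower (median 0.58), against 37.4% and 29.7% of all genes. The corrected CP1 counts in DKO cells were 2 higher and 12 lower, against 19.6% and 31.6% of all genes. With CP1, 2 were higher and 10 lower in DKO cells (median -0.29; 24.2% and 27.6% of all genes), and 3 higher and 0 lower in WT cells (median 0.11; 7.5% and 10.3% of all genes). Ube2s, the chain-extending E2 enzyme, was higher in DKO DMSO by 1.23 (SE 0.08; adjusted p = 2.86e-08) and lower with CP1 in DKO cells, at -0.45 (SE 0.07; adjusted p = 0.000121). Fzr1, the activator used at mitotic exit, was higher in DKO DMSO by 1.02 (SE 0.09; adjusted p = 5.25e-07). Of 16 genes listed as DREAM and MuvB components, NF-Y genes among them, 6 were higher and 6 lower in DKO DMSO (median 0.06). These counts are near the 32.7% and 34.8% of all genes. With GC and length corrected, 8 were higher and 3 lower, against 37.4% and 29.7% of all genes. Their binding to the promoters above was not measured. The E2F factor gene E2f4 was higher by 1.30 (SE 0.09; adjusted p = 6.54e-08) and the MuvB subunit gene Lin52 lower, at -1.24 (SE 0.13; adjusted p = 2.22e-06). Rbl1, which encodes the pocket protein p107, was lower, at -0.74 (SE 0.08; adjusted p = 2.33e-06), a call that ended with GC and length corrected (-0.08; adjusted p = 0.371).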

How the data were processed

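Whole-number gene counts of total RNA were deposited by the authors, not normalized, made with featureCounts 1.5.2 on mm10 per the submitters' processing notes. Deposited TPM values, made by the authors, equal count over gene length rescaled per library, which was checked on the tables. Aligner and strand setting are not given in the sources used here, so reads of overlapping genes cannot be separated. Groups came from titles. Every column had a sample. The members and lists were chosen with earlier results of these data known.

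edgeR 4.0.16 (R 4.3.3) kept 16595 genes (minimum count 10, minimum total 15), with TMM scaling, robust quasi-likelihood fits and Benjamini-Hochberg adjustment at 0.05. Comparisons of genotype or treatment used 4 means and a day term per genotype (6 residual degrees of freedom), which assumes 1 day effect per genotype in DMSO and CP1. Some members departed from this in DKO cells. The log2 ratio of day 4 to day 2 was 2.65 for Mki67 and 2.32 for Cenpf in DKO DMSO, with 1 library a day. In DKO CP1 the largest of any member was 0.56. The common coefficient of variation was 0.0984 in this model and 0.0511 with 8 means. Comparisons by day used 8 means (4 residual degrees of freedom), with the spread of a lone DMSO library taken from the CP1 groups. Both models were tested on simulated data. Those data held no single library with its own GC trend, and for the model with a day term they held no day effect. Depth was 16970834 to 25299262 counts, and every member had at least 183 reads in each library. Alternatives were size factors by RLE, no filter, DESeq2 1.42.0, 8 means, limma 3.58.1 on log2(TPM + 1) with and without ribosomal and small RNA genes, leaving out each library, a replicate block and, added after seeing the data, offsets per library from a robust spline on transcript GC and log2 length. Named members were 10 fixed genes, up to 4 called per direction with the smallest p and up to 6 for the difference of effects. List genes named were among the 3 with the smallest p. Other members and single values, the promoters shown and Gm23935 were chosen after their values were seen.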

Additional observations from a re-analysis of the deposited data

Results flagged for a closer look

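The effect of CP1 differed between DKO and WT cells by the test of the difference itself (edgeR, Benjamini-Hochberg adjustment) for 24 members with a lower and 5 with a higher effect in DKO cells, against 22.3% and 20.1% of all genes. The smallest p-values belonged to 6 of the lower ones. They were Mybl2 with a log2 difference of -1.60 (adjusted p = 3.33e-07), Aurka with -0.77, Cdca8 with -0.80, Plk1 with -0.70, Espl1 with -0.58 and Birc5 with -0.64. All 6 were lower with CP1 in each DKO library than in both DKO DMSO libraries. In WT cells Aurka, Cdca8, Plk1 and Birc5 were called higher with CP1, and Espl1 and Mybl2 did not pass. On the TPM scale, only Mybl2 of the 6 kept the call.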

How the results depend on the processing

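With RLE size factors every count of called members stayed within 1.5 times its first value. Other settings moved some. Without the filter, DKO against WT in CP1 had 8 lower members. DESeq2 gave 1 lower member for day 4 against day 2 in DKO CP1, 10 higher for CP1 in WT cells at 2 days and 10 lower for CP1 in DKO cells at 4 days. With 8 group means, 32 were higher for CP1 in WT cells, 11 for the difference of effects, and 9 lower for DKO against WT in CP1. On the TPM scale by limma, 15 were higher for DKO against WT in DMSO, 0 for CP1 in WT cells (0 at an unadjusted p under 0.05), 1 lower for CP1 in DKO cells, 11 higher and 1 lower for the difference, and 0 lower for DKO against WT in CP1 (0 at an unadjusted p under 0.05). Birc5 then turned to 0.02 for CP1 in DKO cells, Ccnb1 to 0.09 and Aurkb to 0.07 for the difference, and Prc1, Pttg1 and Foxm1 to 0.02, 0.00 and 0.07 for DKO against WT in CP1. Without ribosomal and small RNA genes, CP1 in DKO cells had 22 higher and 2 lower, Birc5 stood at 0.01, and the difference had 8 higher and 12 lower. With GC and length corrected, lower members numbered 3 for DKO against WT in DMSO, 2 in CP1 and 1 for day 4 against day 2 in DKO CP1, the difference had 1 higher, and Ect2 for CP1 in DKO cells turned to -0.09. Across all genes, 48.4% of 11209 calls were higher for DKO against WT in DMSO, and 34.7% of 9816 on the TPM scale. For CP1 in WT cells that share was 42.1% of 2954. It was 7.74% of 1757 on the TPM scale and 68.9% of 3870 without ribosomal and small RNA genes. For CP1 in DKO cells it was 46.7% of 8608, with 79.9% of 7031 and 75.0% of 9055. For the difference it was 47.5% of 7040, with 91.3% of 6078 and 63.9% of 6980. For DKO against WT in CP1 it was 48.6% of 9872, with 69.2% of 9288 on the TPM scale and 47.8% of 9857 without those genes. The causes beyond the shifts of the median given above were not tested.

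Leaving out 1 library at a time, the higher and lower counts ran from 21 to 26 and 3 to 11 for DKO against WT in DMSO, 0 to 32 and 0 for CP1 in WT cells, 10 to 11 and 12 to 16 for CP1 in DKO cells, 0 to 11 and 14 to 24 for the difference, and 13 to 21 and 2 to 9 for DKO against WT in CP1. Between days they ran from 11 to 28 and 0 in WT CP1 and from 13 to 23 and 1 to 3 in DKO CP1. For CP1 by day they ran from 10 to 23 and 0 (2 days) and 31 to 35 and 0 (4 days) in WT cells, and from 12 to 17 and 16 to 17 (2 days) and 10 to 11 and 12 to 18 (4 days) in DKO cells.

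Repeats with the same number did not deviate together (correlations of -0.0137 to 0.144 between groups), so the numbers are not taken as pairs. With a replicate block, DKO against WT in CP1 had 14 higher and 4 lower members, day 4 against day 2 had 23 and 0 in WT CP1 and 18 and 2 in DKO CP1. The other comparisons hold 1 DMSO library a day and were not blocked.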

Other observations

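Genes that act before mitosis were counted beside the 40. Of 40 genes of the G1/S transition and DNA replication, in DMSO 18 were higher and 8 lower in the DKO libraries (median log2 fold change 0.16), against 32.7% and 34.8% of all genes. With GC and length corrected, 24 were higher and 7 lower (median 0.31), against 37.4% and 29.7% of all genes. The corrected CP1 counts in DKO cells were 2 higher and 26 lower, against 19.6% and 31.6% of all genes. Rrm2, the small subunit of ribonucleotide reductase, was higher by 0.92 (SE 0.10; adjusted p = 2.37e-06), and the helicase subunit gene Mcm7 by 0.97 (SE 0.11; adjusted p = 3.95e-06). With CP1 in DKO cells 3 were higher and 25 lower (median -0.37), against 24.2% and 27.6% of all genes, with Rrm2 at -1.27 (SE 0.08; adjusted p = 1.02e-07) and the repressor gene E2f7 at -0.67 (SE 0.06; adjusted p = 3.11e-06). In WT cells 3 were higher and 1 lower with CP1 (median 0.02), against 7.5% and 10.3%. For the difference of CP1 effects 1 was higher and 21 lower, against 20.1% and 22.3%. With GC and length corrected, 0 were higher and 22 lower, against 16.1% and 25.9%.

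Of 12 CDK inhibitors, D-type cyclins and their kinases, in DMSO 9 were higher and 3 lower in the DKO libraries (median 0.66), against 32.7% and 34.8% of all genes. With GC and length corrected, 7 were higher and 3 lower (median 0.42), against 37.4% and 29.7% of all genes. The corrected CP1 counts in DKO cells were 2 higher and 8 lower, against 19.6% and 31.6% of all genes. Ccnd1, which encodes cyclin D1, was higher by 1.80 (SE 0.12; adjusted p = 3.75e-08), its partner gene Cdk6 by 1.27 (SE 0.09; adjusted p = 4.57e-08) and the inhibitor gene Cdkn2b by 1.45 (SE 0.09; adjusted p = 1.80e-08). With CP1 in DKO cells 2 were higher and 7 lower (24.2% and 27.6% of all genes), among them Ccnd1 with -1.07 (SE 0.10; adjusted p = 2.37e-06), while Cdkn1b, the inhibitor p27, was higher by 1.00 (SE 0.10; adjusted p = 3.82e-06). In WT cells 1 was higher and 3 lower with CP1 (7.5% and 10.3% of all genes), with Cdk6 at -0.41 (SE 0.08; adjusted p = 0.00235).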
